A study of Mus musculus with 22 samples.

Results

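The genes described here are the nuclear-encoded subunits of the mitochondrial respiratory chain and ATP synthase, chosen by symbol: names beginning with Nduf and a subunit letter and number, the 4 Sdh genes, and names beginning with Uqcr, with Cox4 to Cox7 and a letter, or with Atp5. Of 18193 genes that the array annotation names with 1 symbol, 78 are members: 33 of complex I, 4 of complex II, 8 of complex III, 16 of complex IV and 17 of complex V. Ndufa4 and its relative Ndufa4l2 were counted under complex IV, because the Ndufa4 protein is known to sit there. Each gene is represented by its brightest probe set, the one with the highest mean log2 signal.

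The study hybridised 22 Affymetrix Mouse Genome 430 2.0 arrays with RNA from male C57BL/6 mice and from cultured cells, and its title concerns tenascin C (TNC), an extracellular matrix protein, and protection from acute aortic dissection. The 14 cell arrays hold cells labelled smooth muscle cells, isolated from the suprarenal aorta of TNC knockout mice, so that every cell group lacks its own TNC. They were left unstimulated (3 arrays), given TNF-alpha at 10 ng/mL, with RNA taken after 24 h by the series' design text (3 arrays; another label gives hours that count up from sample to sample), given 10 µg/mL exogenous TNC (4 arrays), or given both (4 arrays). Whether replicate arrays stem from separately grown cultures is not given in the labels, and the p-values below therefore measure the spread between these samples, which may be technical. The 8 aortic arrays are pools without replicates: wild type (WT) or TNC knockout (KO), suprarenal or infrarenal segment, untreated (5 mice a pool) or 1 week after the treatment labelled CaAngII (8 mice a pool). CaAngII is 0.5 M CaCl2 applied around the infrarenal aorta together with angiotensin II at 1 µg/min/kg, so the suprarenal segment received angiotensin II without local CaCl2.

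In the respiratory chain, complex I (NADH dehydrogenase) and complex II (succinate dehydrogenase) pass electrons to coenzyme Q, complex III passes them on to cytochrome c, and complex IV (cytochrome c oxidase) hands them to oxygen. Complexes I, III and IV pump protons, and complex V (ATP synthase) uses the resulting gradient to make ATP. Complexes with mitochondrially encoded subunits are built from 2 genomes, and their nuclear subunit genes share transcription factors such as NRF1, GABP, YY1 and the estrogen-related receptors. Some complex IV subunits come as isoforms, with one form in most tissues and another in heart, skeletal muscle, brown fat, lung or testis. Brown fat, which surrounds parts of the rodent aorta, is very rich in mitochondria.

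Promoter windows were searched, independently of the signals, for short motifs of the transcription factors named above. RefSeq windows (GRCm38.p6, 250 bases before to 50 after the start) were found for 64 of the 78 members, 69 windows in all. The letters GCATGCG, part of the NRF1 motif, stood on either strand in 14.5% of the members' windows and in 3.58% of all 32851 windows. The ETS letters CCGGAAG, which GABP binds, stood in 23.2% against 8.86%, the YY1 letters ATGGCGG in 14.5% against 4.05%, and the estrogen-related receptor letters AAGGTCA in 11.6% against 4.72%. None of these motifs contains another, and the NRF1 letters are nearly palindromic, so both strands can match at 1 place. The windows of 4 members are printed 5′ to 3′ with these motifs in capitals: Cox7a1, whose signal differed most between infrarenal pools; Ndufb10, a member that fell under TNF and under TNC; Uqcr11, a complex III member that was among the lowest infrarenally; and Atp5k, whose window holds 3 of the motifs.
Cox7a1 (chr7:30183921-30184220, plus strand): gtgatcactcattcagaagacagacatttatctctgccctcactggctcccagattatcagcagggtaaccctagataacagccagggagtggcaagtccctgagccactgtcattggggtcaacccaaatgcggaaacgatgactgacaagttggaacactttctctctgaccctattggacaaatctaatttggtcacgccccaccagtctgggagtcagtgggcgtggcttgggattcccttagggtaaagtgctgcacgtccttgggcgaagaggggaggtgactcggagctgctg
Ndufb10 (chr17:24724374-24724673, minus strand): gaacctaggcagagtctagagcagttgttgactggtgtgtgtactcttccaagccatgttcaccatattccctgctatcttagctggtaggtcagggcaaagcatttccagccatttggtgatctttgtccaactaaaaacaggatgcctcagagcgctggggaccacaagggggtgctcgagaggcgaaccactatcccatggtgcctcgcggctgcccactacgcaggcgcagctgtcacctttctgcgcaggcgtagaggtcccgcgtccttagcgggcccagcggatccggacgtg
Uqcr11 (chr10:80406772-80407071, minus strand): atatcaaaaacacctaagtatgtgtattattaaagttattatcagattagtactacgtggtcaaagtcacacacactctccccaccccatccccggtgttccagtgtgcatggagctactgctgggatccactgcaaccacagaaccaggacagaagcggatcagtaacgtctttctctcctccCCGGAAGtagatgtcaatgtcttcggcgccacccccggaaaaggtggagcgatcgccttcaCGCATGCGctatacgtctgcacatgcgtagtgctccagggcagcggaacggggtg
Atp5k (chr5:108434350-108434649, minus strand): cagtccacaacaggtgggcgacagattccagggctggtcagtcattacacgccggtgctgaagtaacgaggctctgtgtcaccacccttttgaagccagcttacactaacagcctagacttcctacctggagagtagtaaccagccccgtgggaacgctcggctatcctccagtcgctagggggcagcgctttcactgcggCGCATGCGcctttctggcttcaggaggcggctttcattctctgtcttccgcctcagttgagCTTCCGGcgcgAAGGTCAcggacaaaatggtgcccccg
The Cox7a1 and Ndufb10 windows held none of these letters. A match is a description of letters only, and its absence from a window says nothing about a factor.

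The members were brightly measured: 69 of 78 had a signal above 1000 on every array, where the array medians ran from 51 to 64.6 in the cells and from 119 to 134 in the aorta. Array maxima lay between 26915 and 39169. The median spread within a cell group was 0.0699 (SD, log2) over the tested members against 0.171 over all 15639 genes tested in the cells. Cox7b2, a testis form, gave 0.696 to 15 across all arrays and was the 1 member left out of the cell tests. For Ndufb4, whose chosen probe set gave 8.59 to 61.2, and for Cox7c, at 53.3 to 342, the low signals belong to the probe set that carries their symbol alone, and 9 further probe sets of the rule carry several symbols and were not used. Tnc itself gave 1805 to 2699 in the 4 WT pools, 257.5 to 488.7 in the 4 KO pools and 66.3 to 144.2 in the KO cells.

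In the cells, the members moved little under either factor. Their median absolute log2 change was 0.107 for TNF in the absence of TNC, 0.0712 for TNF in the presence of TNC, 0.0841 for TNC without TNF and 0.114 for TNC on top of TNF, against 0.317, 0.211, 0.284 and 0.262 over all tested genes. The members also spread less within a group (SD 0.0699 against 0.171), and the part of this in the smaller changes was not tested. Between 59 and 67 of the 77 members stayed within 0.25 log2 units in each comparison. The summed signal of all 78 members, in arbitrary units, was 465500 to 480600 in the unstimulated arrays, 450500 to 462300 with TNF, 451100 to 470400 with TNC and 455400 to 500700 with both, so on the deposited scaling the TNF arrays lay below the unstimulated ones, and the other ranges overlap. All calls below are from limma with Benjamini-Hochberg adjustment over the 15639 genes at an adjusted p under 0.05. The comparisons share arrays with one another, so each is given with its own values.

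TNF without TNC was tested against the unstimulated cells. Of 77 members 4 rose and 16 fell, or 26%, where 34.1% of all genes were called (14.1% higher and 20% lower). Complex I had 2 higher and 8 lower of 33, complex II 1 lower of 4, complex III 1 higher and 4 lower of 8, complex IV 1 of each of 15, and complex V 2 lower of 17. The excess of falls depends on the scaling: with each array centred on the median of the tested genes, which moves the median of all genes by 0.101, 10 members rose and 8 fell (19% and 14.9% of all genes), and with quantile normalization 3 rose and 29 fell. For quantile normalization the share of all genes is not given, so that split is not a result about the members. Smooth muscle markers moved in the same contrast, with 7 of 8 called lower (summed signal 41350 to 43140 unstimulated and 23900 to 25970 with TNF), and their part in the members' changes was not tested.

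Ndufb10, a membrane-arm subunit of complex I, gave 3490, 3519 and 3493 in the unstimulated arrays and 2583, 2497 and 2603 with TNF. All TNF arrays lay below all unstimulated ones, a fall of 0.45 ± 0.05 (SE, log2; n = 3 and 3; limma adjusted p = 2.84e-05). Ndufb11, of the same arm, fell from 7553, 7950 and 8723 to 6461, 6312 and 6362, by 0.34 ± 0.07 (limma adjusted p = 0.00248). Ndufb1, a small membrane-arm subunit measured at a low signal, rose from 203.6, 186.8 and 216.8 to 405.9, 440.8 and 432.8, a change of 1.08 ± 0.15 (limma adjusted p = 0.000189). The other complex I falls ran from 0.16 for Ndufb2 to 0.48 for the iron-sulfur subunit Ndufs8. The Ndufs8 value rests on 1 of 6 probe sets, since the other 5 gave between -0.11 and 0.59 in this contrast. Ndufb8 rose by 0.21 in its bright probe set, while its dimmer one gave -0.53.

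In complex III, Uqcrh, the hinge protein that faces cytochrome c, fell from 8150, 8687 and 9038 to 7242, 6971 and 7106, by 0.28 ± 0.06 (limma adjusted p = 0.00338). Uqcr11, Uqcr10 and the Rieske iron-sulfur protein Uqcrfs1 fell by 0.35, 0.25 and 0.30. The call for Uqcr10 was lost in 5 of 25 settings, and its other 2 probe sets gave 0.08 and 0.05. Uqcrq went the other way, from 4965, 4357 and 4414 to 5749, 5719 and 5912, a rise of 0.34 ± 0.09 (limma adjusted p = 0.00884). Its other 3 probe sets have mean signals of 15.6 to 46.4, below the array medians, and gave lower values in this contrast, from -1.03 to -0.15. The core proteins Uqcrc1 and Uqcrc2 were not called.

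Cox6b2, the testis form of a complex IV subunit that bridges the 2 monomers, fell from 299, 296.9 and 354.5 to 124, 123.6 and 99.62, by 1.45 ± 0.15 (limma adjusted p = 1.31e-05), the largest change of the 77 in this contrast. Its common partner Cox6b1 was not called, at 12340, 12280 and 12890 before and 12740, 12490 and 12590 after TNF. Cox5a, a matrix-side subunit, rose by 0.18 (10700, 10550 and 10750 against 12230, 12270 and 11850). The call for Cox5a was lost on leaving out single arrays, with adjusted p up to 0.2 over the alternatives. In complex V, the catalytic-head subunit Atp5a1 and the ring subunit Atp5g1 fell by 0.28 and 0.34. The succinate dehydrogenase membrane anchor Sdhc fell by 0.28.

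TNF in the presence of TNC, tested against TNC alone, was followed by 2 members higher and 4 lower, 7.79% against 21.8% of all genes (9.43% higher and 12.3% lower). With centring on the tested genes the split was 7 higher and 3 lower (12.2% and 9.96% of all genes). Ndufa4l2 is a hypoxia-induced relative of Ndufa4 known to lower complex I activity. It fell from 1125, 922.1, 999.7 and 973.4 to 460.3, 478.9, 529 and 387.5, by 1.12 ± 0.09 (limma adjusted p = 7.36e-06). The 2 groups lay wholly apart. Cox6b2 fell from 183.3, 176.5, 150.6 and 168.3 to 101.2, 85.91, 84.72 and 122.3, by 0.80 ± 0.13 (limma adjusted p = 0.000928). Uqcrq and Ndufb8 rose by 0.44 and 0.26, and Atp5o, the stalk protein that confers oligomycin sensitivity, and Sdha, the flavoprotein of complex II, fell by 0.32 and 0.17. The call for Sdha was lost with either centring, and that for Ndufb8 with the mean of its probe sets. The call for Atp5o was lost with that mean and with each array centred on its own median. The other Atp5o probe set gave 0.05. Smooth muscle markers were again lower, 7 of 8 called, and their part was not tested.

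TNC without TNF, tested against the unstimulated cells, raised 5 members and lowered 7, 15.6% against 31.5% of all genes (16% higher and 15.5% lower). Centring each array on its own median, which moves the median of all genes by 0.172, turned this split to 13 higher and 1 lower. The share of all genes called with that centring is not given, so this split is not a result about the members. Ndufb10 fell from 3490, 3519 and 3493 to 2757, 2920, 2707 and 2843, by 0.32 ± 0.05 (limma adjusted p = 0.000345). Ndufb6, Ndufa13 and Ndufa3, all accessory subunits of complex I, fell by 0.36, 0.24 and 0.20. Ndufa4l2 rose from 747.3, 772.3 and 717 to 1125, 922.1, 999.7 and 973.4, by 0.43 ± 0.10 (limma adjusted p = 0.00684), so every TNC array lay above every unstimulated one. Cox6b2 fell by 0.90 ± 0.14 (limma adjusted p = 0.000454). Ndufb1, Ndufs4, Ndufa6 and Uqcrq rose by 0.55, 0.26, 0.20 and 0.36, and Uqcr10 and Atp5j2 fell by 0.19 and 0.17, the last turning to 0.0024 with each array centred on its own median. The calls for Uqcr10, Ndufa6 and Atp5j2 were lost in 16, 14 and 11 of 25 settings, and the other 2 probe sets of Uqcr10 gave 0.43 and 0.42. In this contrast 6 of 8 smooth muscle markers were called lower and 4 of 6 fibroblast markers higher, and their part was not tested.

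TNC on top of TNF, tested against TNF alone, raised 12 members and lowered 4, 20.8% against 28% of all genes (16.1% higher and 11.8% lower). With centring on the tested genes the split was 7 to 6 (13% and 14% of all genes), and with centring on each array's own median 13 to 1. The latter centring moves the median of all genes by 0.096. Its share of all genes is not given, so that split is not a result about the members. Of the 12, 8 belong to complex I, which holds 33 of the 77 tested members. Ndufa6, a matrix-arm accessory subunit, rose from 4933, 4979 and 4973 to 7138, 6435, 6063 and 6425, by 0.39 ± 0.07 (limma adjusted p = 0.00165). The groups did not overlap. Uqcrh rose from 7242, 6971 and 7106 to 8938, 8606, 8467 and 7850, by 0.25 ± 0.06 (limma adjusted p = 0.00602). The other complex I members that rose were Ndufa10, Ndufb9, Ndufb11, Ndufs4, Ndufv2, Ndufa2 and Ndufv3, by 0.15 to 0.27, and Ndufb1 fell by 0.49. The calls for Ndufv3, Ndufa2, Ndufs4, Ndufb11 and Ndufb1 were lost in 10, 8, 7, 4 and 4 of 25 settings. Other probe sets of Ndufs4 gave -0.07, 0.03 and -0.17. Ndufa4l2 fell from 751.5, 798.8 and 841.5 to 460.3, 478.9, 529 and 387.5, by 0.79 ± 0.10 (limma adjusted p = 0.000169). Cox6a2, the heart and skeletal muscle form, was called higher by 1.26 ± 0.33 at low signals (211.2, 169.7 and 202.3 against 403.2, 476.4, 317.9 and 758.1; limma adjusted p = 0.0136), and Cox4i2, the lung form, lower at signals under 52. Each call was lost on leaving out single arrays, that for Cox6a2 without TNF replicate 2. Uqcrq and the ring subunit Atp5g2 were called higher by 0.45 and 0.16, and Atp5o lower by -0.31. The call for Atp5g2 was lost in 10 of 24 settings, and that for Uqcrq in 2 of 25, both with another choice of probe set. In this contrast 1 of 8 smooth muscle markers was called lower, 3 of 7 macrophage markers higher and 1 lower, and 2 of 6 fibroblast markers higher and 1 lower, and their part was not tested.

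**Figure D1:**
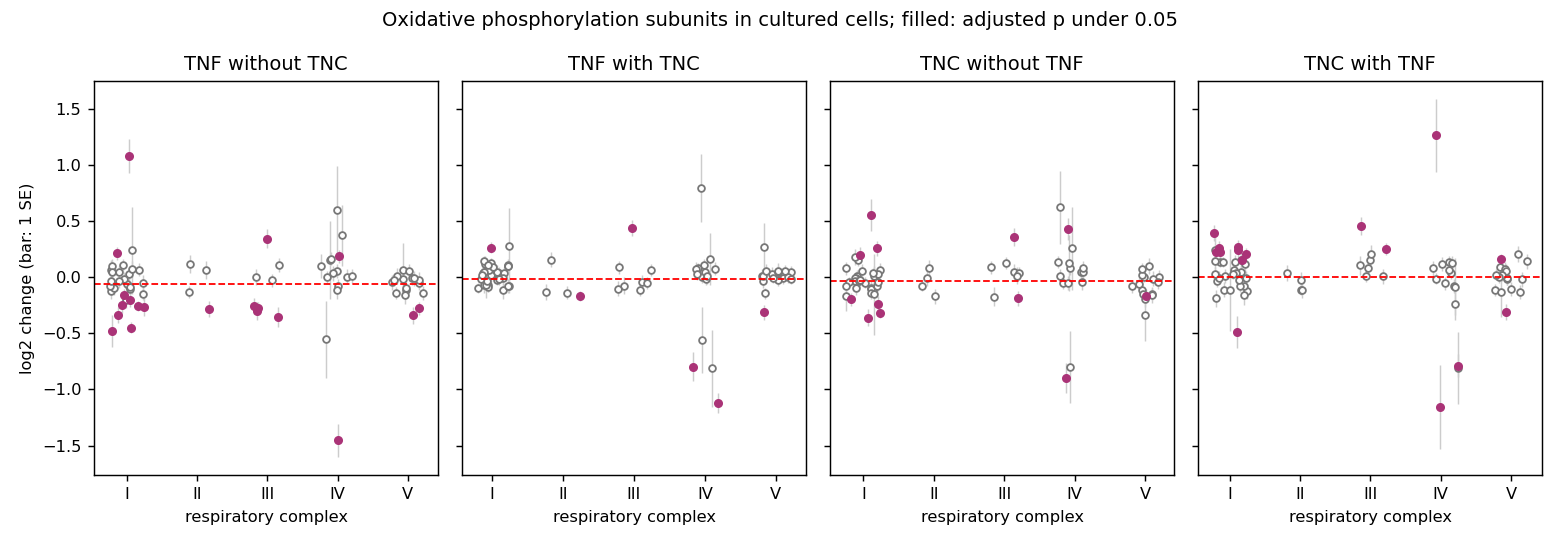
Log2 change of each of the 77 tested members by respiratory complex in the 4 cell comparisons. Each point is a gene with a bar of 1 SE, filled where the limma adjusted p is under 0.05, and the dashed line is the median of all tested genes; most members lie near it, and those past 1 log2 unit are Ndufb1 and Cox6b2 for TNF without TNC, Ndufa4l2 for TNF with TNC, and Cox6a2 and Cox4i2 for TNC with TNF.

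The test of whether the TNF effect differed with and without TNC called 8 of the 77 members, 10.4% against 18.5% of all genes. The TNF effect was higher with TNC for 6 (9.63% of all genes) and lower for 2 (8.89%). Ndufa4l2 changed by 0.10 without TNC and fell by 1.12 with it, a difference of -1.22 ± 0.14 (limma adjusted p = 0.000127). Ndufb1 rose by 1.08 without TNC and changed by 0.04 with it (303.3 against 295.9 in the group means), a difference of -1.04 ± 0.20 (limma adjusted p = 0.00407). Ndufb10, Ndufb11, Ndufv3, Uqcr10 and Atp5g1, all of which fell under TNF without TNC, had differences of 0.35, 0.36, 0.23, 0.34 and 0.39, and Cox6b2 had 0.66. With each array centred on its own median 2 members were called, Ndufa4l2 and Ndufb1. These 2 kept their calls in all 25 settings, the reported one included. In the same test 4 of 8 smooth muscle markers were called higher and none lower (median 1.09), and 2 of 6 fibroblast markers lower (median -0.86), and their part was not tested.

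**Figure D2:**
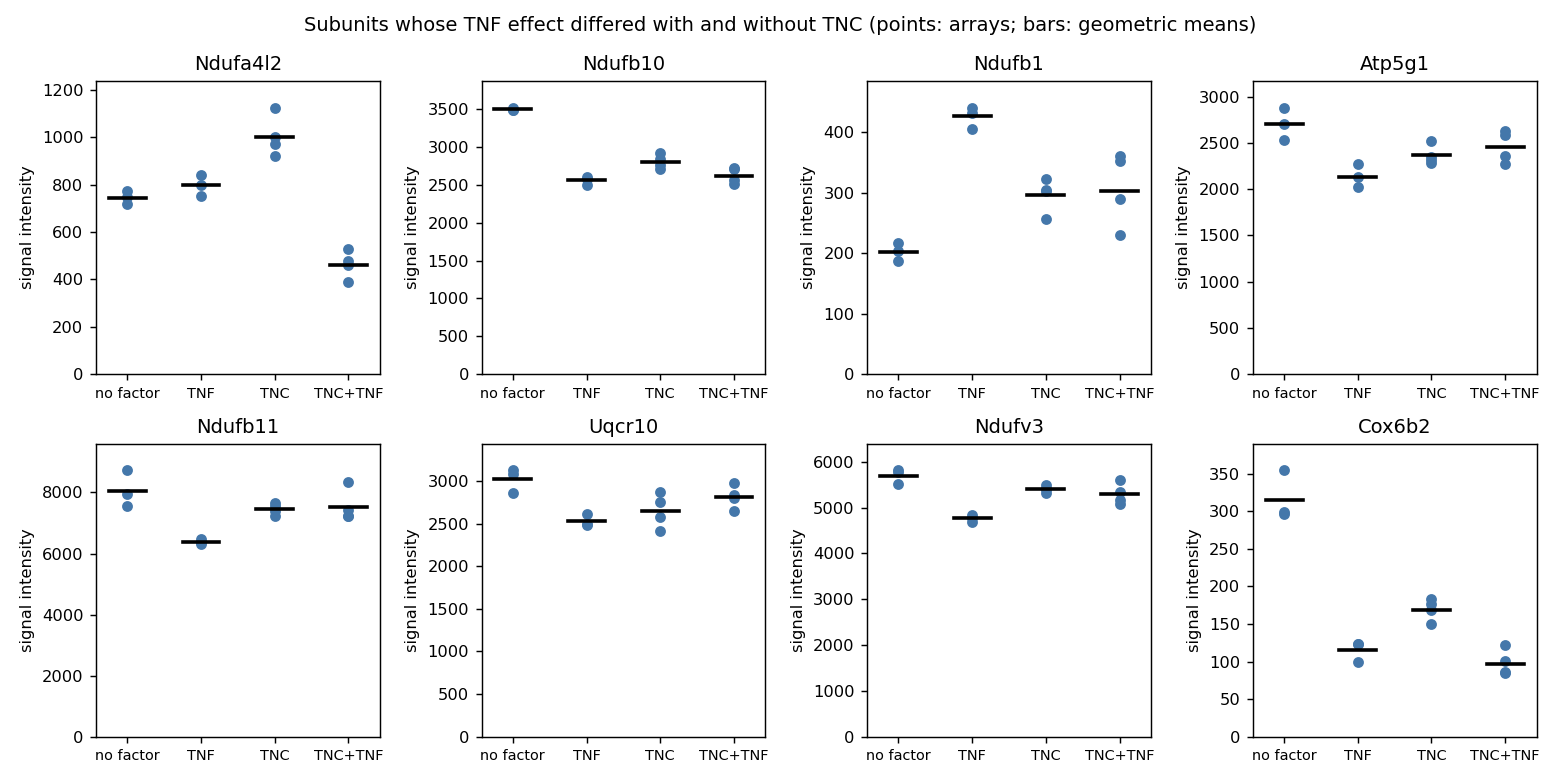
Signal intensity of the 8 members whose TNF effect differed with and without TNC, on linear axes from 0, in the 14 cell arrays grouped as no factor, TNF, TNC and TNC with TNF. Points are arrays and bars geometric means; Ndufa4l2 is lowest with both factors (387.5 to 529), Ndufb1 is highest with TNF alone (405.9 to 440.8), and Ndufb10 is highest with no factor (3490 to 3519).

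Other genes of the pathway were examined as lists. Under TNF without TNC, tricarboxylic acid cycle enzymes had 2 higher and 8 lower of 16, assembly factors 7 higher and 9 lower of 34, and biogenesis regulators 4 higher and 3 lower of 19, with median log2 changes of -0.13, -0.05 and -0.21 against -0.06 over all genes. Of all genes 14.1% were called higher and 20% lower in this contrast, or 19% and 14.9% with centring on the tested genes. With TNC on top of TNF, the outer membrane and import genes had 8 higher and 1 lower of 19, and the biogenesis regulators 5 higher and none lower of 19, against 16.1% higher and 11.8% lower of all genes (13% and 14% with centring on the tested genes). Tfam, which packages mitochondrial DNA and takes part in its transcription, rose in each of the 4 comparisons by 0.30 to 0.32 (limma adjusted p = 0.00247 to 0.00437). Esrra, an estrogen-related receptor, rose by 0.46 ± 0.12 with TNC on top of TNF (limma adjusted p = 0.0138). Ppargc1a, a coactivator of these factors, had mean signals of 20.1 to 33.7 in the cells and was not called.

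In the aorta, nearly every member was lower in the CaAngII pool than in the untreated pool of its genotype and segment, and more so infrarenally. In the infrarenal WT pair the median log2 ratio of 75 members was -0.75, or 59.6% of the untreated signal, where the median of all 11846 genes was 0.0015; 74 of 75 were lower, against 49.9% of all genes. In the infrarenal KO pair the median was -0.57 against 0.07, with 70 of 75 lower against 44.9%. Suprarenally the medians were -0.28 in WT against 0.02 (72 of 75 lower, 46.3% of all genes) and -0.14 in KO against -0.04 (66 of 75, 56.3%). The 75 are those at or above the median of all probe sets on at least 1 array of the pair; Cox7b2, Ndufb4 and Cox4i2 did not pass. With 1 pool on each side there is no replicate check and no test. Fewer cells of a type and less RNA per cell cannot be told apart in such pools.

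By complex, the infrarenal medians in WT were -0.83 for complex I, -0.85 for II, -0.95 for III, -0.68 for IV and -0.62 for V, and in KO -0.64, -0.63, -0.64, -0.44 and -0.43. Suprarenally they lay between -0.31 and -0.22 in WT and between -0.17 and -0.09 in KO. In all 4 pairs 64 of 75 members were lower, against 16.1% of all genes. The infrarenal difference exceeded the suprarenal one in 70 of 75 members in WT and 68 in KO, against 52.6% and 44.1% of all genes. Members with any of the 4 promoter motifs had a median infrarenal ratio of -0.75 in WT (31 genes) and those with none -0.81 (31 genes). In KO these were -0.55 and -0.62.

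**Figure D3:**
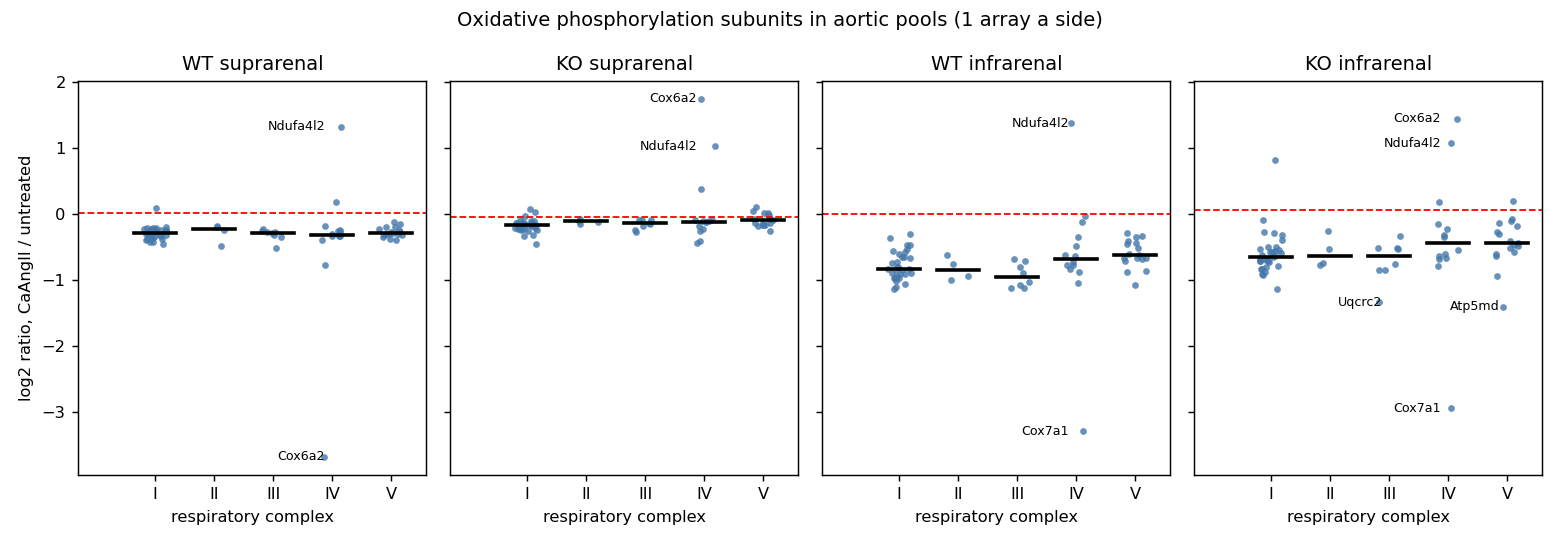
Log2 ratio of CaAngII over untreated for the 75 members that passed the filter, by respiratory complex, in the 4 pairs of aortic pools. Points are genes, black bars medians by complex and the dashed line the median of all genes; the infrarenal members lie mostly between 0 and -1.1, with Cox7a1 at -3.29 and -2.94.

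At least a 2-fold lower signal was seen in 11 of 75 members in the infrarenal WT pair (6.91% of all genes) and in 4 in the KO pair (6.12%), and 3 members were that low in both (3.92% of all genes): Cox7a1, Uqcrc2 and Ndufs1. Ndufs1, which carries iron-sulfur clusters of the complex I matrix arm, gave 3236 untreated and 1514 after CaAngII in WT, and 3585 and 1633 in KO. Uqcrc2, a core protein of complex III, gave 10070 and 4630 in WT and 10630 and 4221 in KO. Its second probe set gave log2 ratios of -0.99 and -0.81. Uqcr11, whose promoter is printed above, gave 8565 and 3935 in WT and 7988 and 4442 in KO. Ndufa12, Uqcrfs1, Uqcr10, Ndufb9, Ndufa9, Ndufa4 and Atp5o were the other members past 2-fold in WT, and Atp5md, a small membrane subunit of ATP synthase, in KO (9062 and 3427).

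The isoforms of complex IV subunits were set beside their common partners. Cox7a1, the form of heart, skeletal muscle and brown fat, gave 6161 and 3621 in the suprarenal WT pools, untreated and CaAngII, 4566 and 3360 in suprarenal KO, 1820 and 186.4 in infrarenal WT and 2147 and 280.4 in infrarenal KO. It was thus 9.76-fold and 7.66-fold lower infrarenally. Cox7a2, its widely expressed partner, gave 19240 and 10530 in infrarenal WT and 18910 and 12170 in infrarenal KO. Cox7a2l, which helps to join complexes III and IV in supercomplexes, hardly differed in infrarenal WT, at 3959 and 3878, and gave 3932 and 4487 in infrarenal KO. Suprarenally it was lower after CaAngII, at 4341 and 3838 in WT and 4059 and 3399 in KO.

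Ndufa4l2 was dim in the aorta. It gave 59.27 and 148.4 in suprarenal WT, 65.72 and 133.6 in suprarenal KO, 119.9 and 310.5 in infrarenal WT and 132 and 277.7 in infrarenal KO. The untreated suprarenal signals lie below the aortic array medians of 119 to 134, so the suprarenal pairs passed the filter through the CaAngII array alone, and no fold is given. Ndufa4 was lower in each pair, for example 11720 and 5676 in infrarenal WT. In the unstimulated cells the Ndufa4l2 probe set gave 717 to 772.3. Cox6a2 had its own order over the pools. It gave 3672 and 288.1 in suprarenal WT, 201.6 and 674.5 in suprarenal KO, 327.5 and 193 in infrarenal WT and 130.4 and 354.1 in infrarenal KO. The summed signal of 9 skeletal muscle markers over the same pools was 66050 and 6124, 2347 and 15630, 19090 and 7152, and 1016 and 16640, higher and lower in the same pairs. Cox6a1, the common form, stayed between 15300 and 23310. Cox4i2 stayed under 88 in every pool, and Cox6b2 between 156.6 and 261.9.

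**Figure D4:**
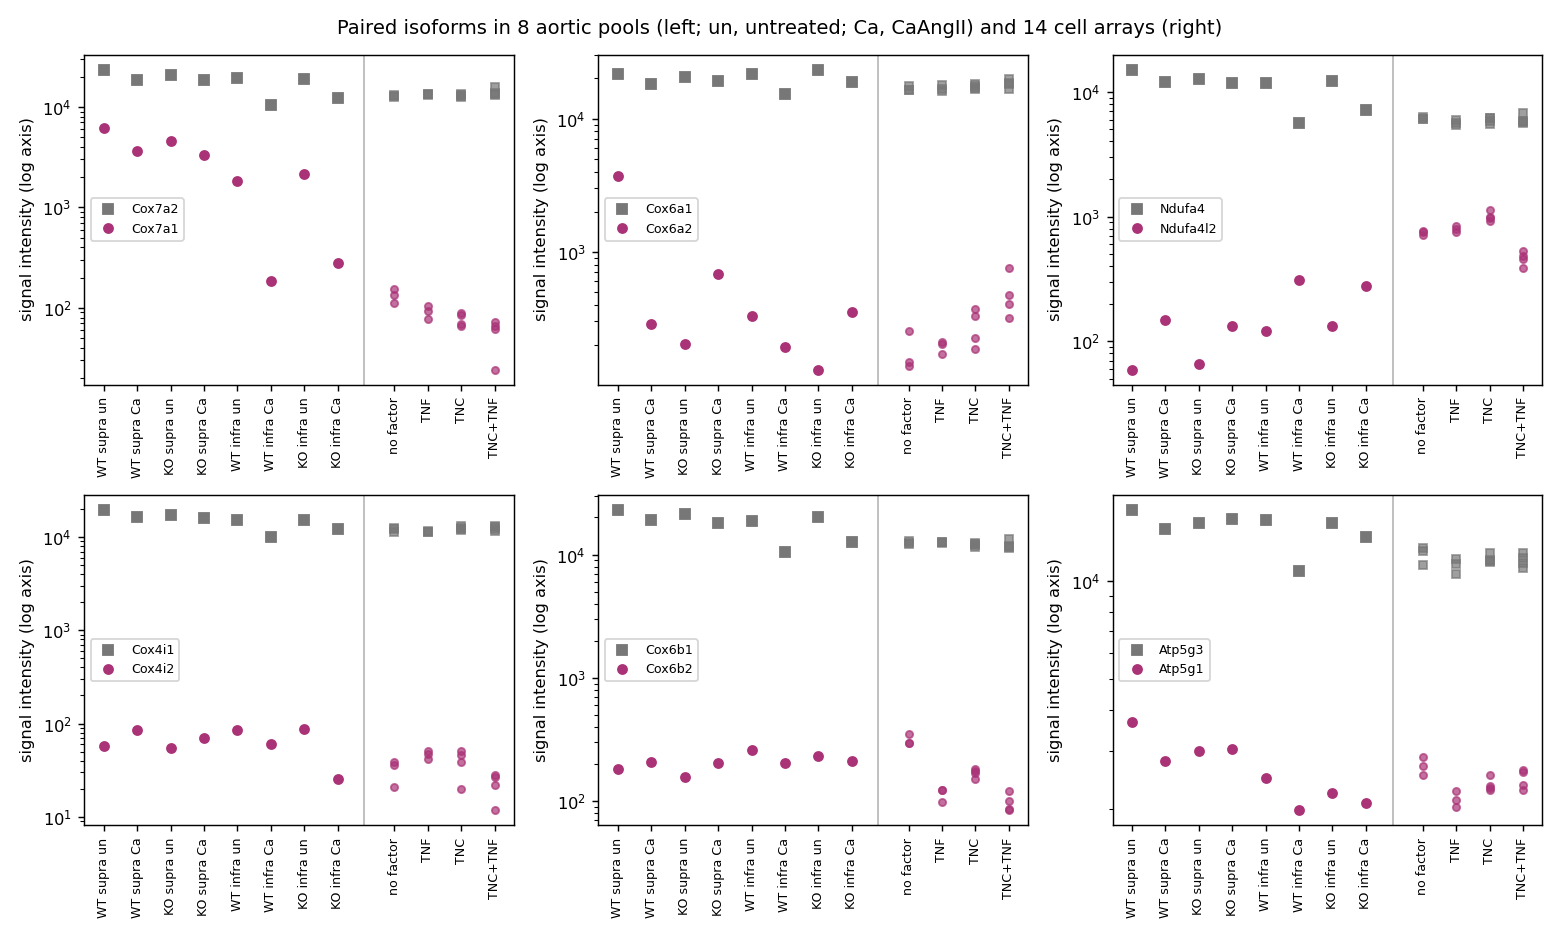
Signal intensity on log axes of a common subunit (squares) and its isoform or relative (circles) for 6 pairs in the 8 aortic pools and the 14 cell arrays. Each panel compares arrays within a probe set, not one probe set with another; Cox7a1 drops to 186.4 and 280.4 in the infrarenal CaAngII pools, Cox6a2 peaks at 3672 in the untreated suprarenal WT pool, and Ndufa4l2 lies between 59.27 and 310.5 in the pools.

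Markers of other cell types differed between the same pools. The summed signal of 9 brown fat markers, among them the uncoupling protein Ucp1, went from 26720 to 4265 in infrarenal WT and from 25200 to 5446 in infrarenal KO, and suprarenally from 50780 to 39680 and from 39220 to 31520. Ucp1 alone gave 5716 and 390.9, and 5125 and 306.6, infrarenally. The 8 smooth muscle markers went from 97080 to 54040 and from 97350 to 61440 infrarenally, and the 6 white fat markers from 83110 to 49230 and from 82430 to 60520. The 8 macrophage markers went in sum from 18020 to 49770 and from 15500 to 52570. The summed signal of all members went from 650500 to 392800 in WT and from 653900 to 445600 in KO. The part of any of these markers in the members' values was not tested.

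**Figure D5:**
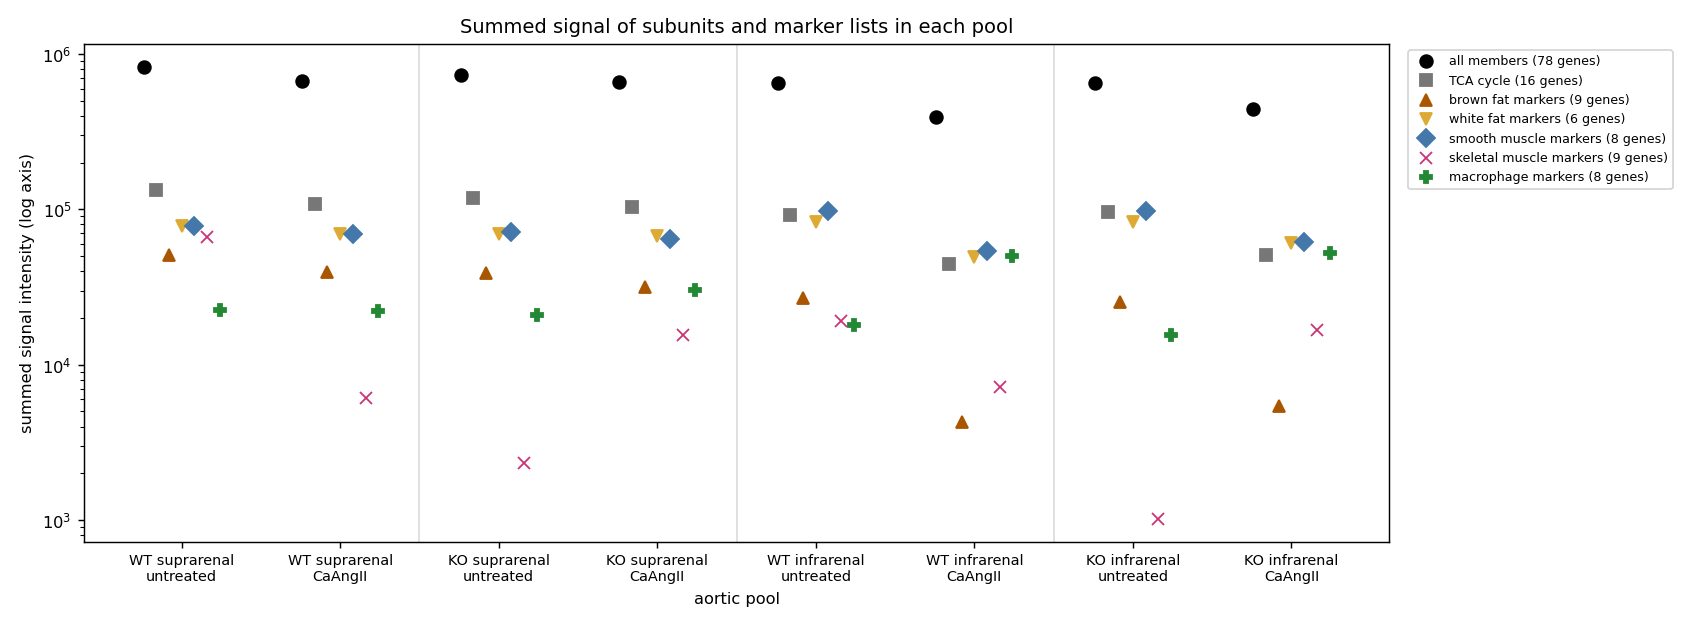
Summed signal intensity, on a log axis, of the 78 members, the tricarboxylic acid cycle enzymes and 5 marker lists in each of the 8 aortic pools. Each point is the sum for 1 list on 1 array. In the infrarenal CaAngII pools the members (392800 and 445600), the cycle enzymes (44460 and 50800) and the brown fat markers (4265 and 5446) are at their lowest. So are the white fat (49230 and 60520) and smooth muscle markers (54040 and 61440), and the macrophage markers (49770 and 52570) are at their highest.

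Genes that work with the subunits differed to unequal extents in the infrarenal pairs. The 16 tricarboxylic acid cycle enzymes were all lower, with medians of -1.09 in WT and -0.81 in KO, and so were 12 other electron transport genes, at -1.01 and -0.80, a list that includes the brown fat gene Cox8b. Citrate synthase (Cs) gave 8228 and 3793 in WT, and cytochrome c (Cycs) 19790 and 8446. The 34 assembly factors had medians of -0.32 and -0.24, the 19 outer membrane and import genes -0.34 and -0.18, and the 18 biogenesis regulators -0.09 and -0.18. Ppargc1a, at 249.2 and 89.34 in WT and 208.7 and 107.4 in KO, was lower than that list's median. The 1 mitochondrially encoded gene measured, the complex I subunit ND5, gave -0.58 and -0.12.

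Between genotypes the direction turned with segment and treatment. In untreated suprarenal pools the KO was lower, with a member median of -0.17 and 72 of 74 lower (47.5% of all genes), and in suprarenal CaAngII pools the median was -0.05 (52 of 75 lower, 57% of all genes). In untreated infrarenal pools it was -0.01 (42 of 74 lower, 60.9% of all genes), or -0.17 with each array centred on its median, which moves the median of all genes by -0.156. In infrarenal CaAngII pools the KO was higher, with a median of 0.19 and 70 of 75 higher, among them all 32 of complex I and all 4 of complex II; 44.6% of all genes were lower there. Ndufv1, the subunit that binds NADH, illustrates the order: 8227 in WT and 6665 in KO suprarenally untreated, 5325 and 5661 infrarenally untreated, and 2722 and 2975 infrarenally after CaAngII. Markers of other tissues differed between the same pools. From WT to KO in the untreated suprarenal pools, the skeletal muscle sum went from 66050 to 2347 (9 of 9 markers at least 2-fold lower) and the brown fat sum from 50780 to 39220 (9 of 9 lower). In the infrarenal CaAngII pools the skeletal muscle sum went from 7152 to 16640 (9 of 9 higher), the white fat sum from 49230 to 60520 (6 of 6 higher) and the brown fat sum from 4265 to 5446 (4 of the 5 above the filter higher). In untreated infrarenal pools, where the member median was -0.01, the skeletal muscle sum went from 19090 to 1016 (8 of the 8 above the filter lower). In suprarenal CaAngII pools, where it was -0.05, the skeletal muscle sum went from 6124 to 15630 (9 of 9 higher). The part of these markers was not tested, and no replicate pool gives the spread of these genotype differences.

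Between segments, the infrarenal pool was lower than the suprarenal pool of its genotype and treatment. The member median was -0.37 in untreated WT (73 of 74 lower, 48.9% of all genes), -0.21 in untreated KO (68 of 74, 55%), -0.83 in CaAngII WT (73 of 75, 47.8%) and -0.63 in CaAngII KO (71 of 75, 45.4%). In the CaAngII WT pair 24 members were at least 2-fold lower (11% of all genes). By complex, II and III had the lowest medians there, -1.21 and -1.20, and V the nearest to 0, -0.59. Uqcrc1, the other core protein of complex III, gave 8020 suprarenally and 4608 infrarenally in untreated WT, and 6829 and 2654 after CaAngII. The brown fat markers also had lower sums infrarenally in every such pair, as did the neuron and adrenal markers. Suprarenally the adrenal sum rests mostly on Th and Dbh, which gave 9047 and 9272 there and 958.4 and 1673 infrarenally in untreated KO. In that pair 3 of 5 adrenal markers were at least 2-fold higher infrarenally, among them Hsd3b1 (7.906 and 2613), and 2 at least 2-fold lower. The neuron sum went from 26830 to 4931 in untreated WT and from 32910 to 2975 in CaAngII WT. In the same pairs the adrenal sum went from 14490 to 2856 and from 18070 to 1827. The skeletal muscle sum was lower infrarenally when untreated and higher after CaAngII. The fibroblast and endothelial sums were higher in every pair. The part of any of these markers was not tested.

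Further probe sets of the same genes give a second reading of the infrarenal values. Members have 158 probe sets in all, and 32 members have 1. Of 58 further probe sets with a mean signal of at least 200, from 39 genes, 55 were lower in each infrarenal pair, with medians of -0.75 in WT and -0.55 in KO.

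The cultured cells kept some smooth muscle genes and carried markers of other types. Acta2 and Tagln gave mean signals of 22930 and 14200 unstimulated, while Myh11, a contractile myosin, gave 340.8 there and 33.9 with both factors, against 8638 to 18980 in the aortic pools. The 6 endothelial markers summed to 6515 to 7226 in the unstimulated arrays and to 5183 to 15210 in the pools. Of these, Pecam1, Cdh5 and Tie1 gave 3216, 1795 and 350.5 unstimulated, against 1555 to 3974, 676.2 to 1502 and 233.5 to 410.2 in the pools. Kdr, Tek and Vwf gave 70.5, 255.1 and 1207 unstimulated, below the 520.8 to 878.2, 890.7 to 2348 and 1306 to 6473 of the pools. The 6 fibroblast markers summed to 16210 to 17270 unstimulated and to 44730 to 101500 in the pools. Among them Col1a1 and Pdgfra gave 7167 and 2157, within the 2756 to 15880 and 1950 to 5692 of the pools. Dcn, Lum, Dpt and Pi16 lay below all pools. Of the 9 brown fat markers, Ucp1, Cidea, Cox8b, Otop1 and Cpn2 had means below 12 in every cell group. Elovl3 gave 31.9 to 55.5 and Ppargc1a 20.1 to 33.7. Prdm16 gave 270.4 to 376, and Dio2 went from 134 unstimulated to 531.7 with TNF, 770.4 with TNC and 691.5 with both. The part of these markers in the members' values was not tested.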

How the data were processed

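The authors deposited 1 intensity per probe set and array, on a linear scale, made with Affymetrix Expression Console per the submitters' processing notes; which algorithm was run is not given in the sources used here. For the deposited values the mean of the middle 96% of values is 500 on each of the 22 arrays, and the values were not quantile normalized. The number of arrays limits the precision. Of 45101 probe sets, 34945 carry 1 gene symbol in GEO's platform annotation, 64 are controls, 932 carry several symbols and 9160 none. The values were taken to log2, and each gene was given its probe set with the highest mean. Genes that reached the 30th percentile of non-control probe sets on 3 or more cell arrays were fitted with limma 3.58.1 (R 4.3.3) in 1 model of the 4 cell groups with 10 residual degrees of freedom and Benjamini-Hochberg adjustment. In the aorta, genes that reached the 50th percentile on 1 array of a pair were compared as log2 ratios. Tested on simulated data for TNF without TNC (200 of 15639 genes changed), the fit recovered 37% of changes of 0.5 and 60% of changes of 1. Of the simulated calls 5.83% were false. The changed genes were drawn from all tested genes and were far fewer than the 34.1% called in the real contrast. These rates therefore need not hold for the members, whose spread is smaller. Full values per array go to the called member with the lowest adjusted p per complex and direction, to interaction members, to the 3 highest and 3 lowest aortic ratios and to isoform pairs, and a few further members were named after their values were seen. Members and lists were chosen with earlier results of these data known. Cell groups follow the treatment label where titles are ambiguous.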

Additional observations from a re-analysis of the deposited data

Results flagged for a closer look

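Within a group of 4 cell arrays, 72 checks of named members for an array far from the others gave 1: Cox7a1 with TNC and TNF, where replicate 4 read 24.31 and the others 62.03, 65.39 and 72.51. Chance gives about 1 in 20 such groups.

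For 8 of 77 members, 10.4% against 18.5% of all genes, the effect of TNF differed by the limma interaction test with and without TNC. The differences in log2 change, with TNC minus without, were -1.2161 for Ndufa4l2, -1.0416 for Ndufb1, 0.3543 for Ndufb10, 0.3948 for Atp5g1, 0.3551 for Ndufb11, 0.3403 for Uqcr10, 0.2266 for Ndufv3 and 0.6583 for Cox6b2. The limma adjusted p ranged from 0.000127 for Ndufa4l2 to 0.0359 for Cox6b2. Calls were lost in 13 of 25 settings for Ndufv3, 10 for Cox6b2, 9 for Uqcr10, 4 each for Ndufb11 and Atp5g1 and 1 for Ndufb10.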

How the results depend on the processing

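Member calls depended on scaling and on the probe set. For TNF without TNC, 20 calls became 6 when arrays were centred on their own medians, 32 with quantile normalization, 11 with the mean of a gene's probe sets and 12 with its most variable one. For TNF with TNC, 6 became 10 with centring on the tested genes, an alternative chosen after seeing the data, and 2 with the mean. For TNC without TNF, 12 became 6 with the most variable probe set and 20 with a trended, robust variance. For TNC with TNF, 16 became 7 with the most variable probe set. For the interaction, 8 became 2 (centred on the array median), 4 (centred on the tested genes) and 3 (most variable probe set). Except where given above, the share of all genes called under each setting is not given, so these counts are not a result about the members. The cause was not tested.

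Leaving out 1 array gave 14 to 23, 5 to 10 (10 without TNC and TNF replicate 3), 7 to 15 (7 without unstimulated replicate 3), 9 to 18 (9 and 10 without TNF replicates 2 and 3) and, for the interaction, 5 to 9 calls (5 without unstimulated replicates 1 or 3 or TNF replicates 2 or 3). Replicate numbers did not pair the samples: 19 same-number pairs correlated by -0.0138 to 0.0568. With the replicate number as a block the counts were 18, 7, 8, 10 and, for the interaction, 7.

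Single genes that changed direction were Ndufb8 (-0.16 and -0.0531 for TNF without and with TNC), Uqcrq (-0.3293 for TNF and -0.5006 for TNC), Ndufs4 (-0.0259 for TNC) and Uqcr10 (0.2222 for TNC) with the mean of probe sets; Uqcrq (-1.0297 for TNF, -2.0265 for TNC, -0.9152 for TNC with TNF) and Ndufs4 (-0.2086, -0.1742) with the most variable one; and Atp5j2 (0.0024 for TNC) with centring on the array median. Of 700 values of named calls with 1 array left out, 700 kept their direction and 609 their call.

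Aortic medians kept their direction except for KO against WT in untreated infrarenal pools, at 0.0047 with quantile normalization. Centring moved CaAngII medians to -0.1972 (WT suprarenal), -0.8398 (WT infrarenal) and -0.4399 (KO infrarenal), KO against WT in untreated infrarenal pools to -0.1687, and infrarenal against suprarenal to -0.9371 (CaAngII WT) and -0.3149 (untreated KO). Quantile normalization gave -0.1632 for WT suprarenal, and the mean of probe sets -0.7362 for infrarenal against suprarenal CaAngII WT. Signals near or below the array medians limit Cox4i2, Cox7b2 and, in the aorta, Ndufa4l2.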
